A study of Homo sapiens with 12 samples.

Results

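Polyamine metabolism was followed through 9 genes around SAT1 in LNCaP-AI cells, in which internal m7G of mRNA had been mapped by AlkAniline-Seq after knockdown of the m7G methyltransferase METTL1. The members were taken by Ensembl gene ID and make up 9 of the 18569 gene IDs and 1024 of the 842183 positions in the deposited tables. They are ODC1 (ENSG00000115758), AMD1 (ENSG00000123505), SRM (ENSG00000116649) and SMS (ENSG00000102172), which make polyamines, SAT1 (ENSG00000130066), SMOX (ENSG00000088826) and PAOX (ENSG00000148832), which break them down or recycle them, and AZIN1 (ENSG00000155096) and OAZ1 (ENSG00000104904), which control ODC1. SAT1 was chosen by this readout, namely by the fold over input at one of its positions in the comparison of shMETTL1 with shscramble, so its values are given as a description with no test. ODC1 and SRM also stand in the study's list of changed positions, so their direction there is not independent evidence. The other 6 were taken as genes of the same pathway.

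LNCaP-AI is an androgen-independent line of prostate cancer cells derived from LNCaP and kept under androgen deprivation, a model of castration-resistant disease. METTL1 was stably silenced in the knockdown cells by an shMETTL1 hairpin, and the control cells received shscramble. Both groups were labelled as under androgen deprivation therapy. Each group had 3 AlkAniline-Seq libraries and 3 input libraries, 12 in all. AlkAniline-Seq breaks the RNA backbone next to m7G with alkali and aniline, and adaptors are joined to the ends this frees, which places the starts of reads at single positions. The input libraries were made without that enrichment. The oligos that encode the shMETTL1 hairpin are shown because the knockdown they bring about separates the groups, and capitals mark the 21 bases by which the stem strands pair with each other.
shMETTL1 oligo, first stem strand: GGAATGTAGTCCATCTAAACTcg
shMETTL1 oligo, second stem strand: aaAGTTTAGATGGACTACATTCC

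Polyamines are small, positively charged molecules that bind RNA and DNA and are needed for growth, and the prostate is known for making and secreting large amounts of them. ODC1 forms putrescine from ornithine, and SRM and SMS add aminopropyl groups, supplied by AMD1, to make spermidine and then spermine. SAT1 acetylates spermidine and spermine so that they leave the cell or are oxidised by PAOX, and SMOX oxidises spermine directly. OAZ1, an antizyme, binds ODC1 and sends it to the proteasome, while AZIN1 binds the antizyme and so spares ODC1.

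The AlkAniline-Seq counts summed to between 2474464 and 2764417 reads in the shMETTL1 libraries and to between 1421551 and 2624431 in the shscramble libraries. The input counts lay between 2783709 and 3258499 over all 6 input libraries. A pair of libraries stood apart. The AlkAniline-Seq library of shscramble replicate 1 had a read at 99.9% to 100% of the positions where another shscramble library had at least 50 reads, and at 69 of 69 such positions in the polyamine genes, whereas among pairs without it this share was 31.1% to 51.8%. The input library of shscramble replicate 2 had reads at 72098 positions, against at least 153839 in each of the other input libraries. Many of the values below are also given without one of these libraries. METTL1 itself and markers of the cell line could not be looked up, since the tables carry Ensembl IDs without symbols. In such bulk libraries, fewer cells that express a gene and less of its RNA per cell cannot be told apart.

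In the AlkAniline-Seq libraries, no member passed the test for a difference between groups. SAT1 stood lower in all 3 shMETTL1 libraries than in any shscramble library, as did AZIN1 and OAZ1, and ODC1 stood higher. Among the 8 members tested, the groups thus did not overlap in 2 that were lower and 1 that was higher, against 7.38% and 7.1% of all genes tested. Of the 8 members tested, 0 passed an adjusted p of 0.05 in edgeR's quasi-likelihood test, against 0.00901% of 11097 genes, and 0 had an unadjusted p under 0.05, against 6.97% of genes. DESeq2 also called 0 of the 8, against 178 genes, or 1.6%, but gave no adjusted p for PAOX. The methods' t-test called 0 after adjustment, among members as among all genes, and 1 of the 8, OAZ1, without it, against 964 genes, or 8.69%, so that the members' count was near the background. The median log2 fold change of the 8 was 0.31, with 6 above 0 and 2 below, and that of all genes tested was 0.07.

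Among the synthesis genes, ODC1, the first and rate-limiting enzyme of the pathway, had 1863, 1491 and 1589 AlkAniline-Seq reads in shMETTL1 replicates 1, 2 and 3 and 846, 1503 and 392 in shscramble replicates 1, 2 and 3. After scaling for library size (CPM) it averaged 670.3 ± 61.2 in shMETTL1 and 435.7 ± 145 in shscramble (SD, n = 3 each), and the groups did not overlap. The log2 fold change was 0.62 (SE 0.32) with an adjusted p of 0.76 by edgeR. Leaving out shscramble replicate 1 gave 0.66 (SE 0.40).

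AMD1, which decarboxylates S-adenosylmethionine to supply the aminopropyl groups, had 1376, 1449 and 826 reads in shMETTL1 and 703, 952 and 818 in shscramble. Its CPM overlapped between groups, at 493 ± 124 in shMETTL1 and 441 ± 121 in shscramble (SD, n = 3 each), and the log2 fold change was 0.16 (SE 0.33), or 0.06 (SE 0.41) without shscramble replicate 1. SRM, spermidine synthase, had 504, 141 and 305 reads in shMETTL1 and 109, 295 and 187 in shscramble. Its replicates spread more widely than its groups, with a log2 fold change of 0.34 (SE 0.61), which became 0.07 (SE 0.71) without shscramble replicate 1. SMS, spermine synthase, had 168, 10 and 194 reads in shMETTL1 and 72, 25 and 108 in shscramble. In both groups replicate 2 was the lowest, and the log2 fold change was 0.28 (SE 1.15), or 0.24 (SE 1.41) without shscramble replicate 1. The adjusted p-values of AMD1, SRM and SMS by edgeR were 0.98, 0.97 and 0.99.

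Among the breakdown genes, SAT1, the spermidine and spermine acetyltransferase, had 237, 114 and 199 AlkAniline-Seq reads in shMETTL1 and 339, 700 and 253 in shscramble. Every shMETTL1 library was below every shscramble library in CPM, at 92.5, 46.3 and 85.0 against 186, 263 and 180. The log2 fold change was -1.49 (SE 0.52), and -1.58 (SE 0.65) without shscramble replicate 1. These values are of the contrast on which SAT1 was chosen, and nothing is read from them.

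SMOX, spermine oxidase, had 34, 126 and 4 reads in shMETTL1 and 60, 40 and 0 in shscramble. PAOX, the oxidase of acetylated polyamines, had 93, 3 and 0 reads in shMETTL1 and 15, 10 and 10 in shscramble. Both genes were too sparsely read for a direction. Their log2 fold changes of 0.46 and 0.97 had standard errors of 1.66 and 1.62, without shscramble replicate 1 they were 1.52 (SE 2.18) and 1.199 (SE 2.18), and 123 of the 126 SMOX reads in shMETTL1 replicate 2 were at a single position.

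Of the genes that control ODC1, AZIN1, the antizyme inhibitor, had 312, 142 and 417 reads in shMETTL1 and 347, 519 and 360 in shscramble. In CPM the groups did not overlap, with 119 ± 60.3 in shMETTL1 and 214 ± 36.3 in shscramble (SD, n = 3 each). The log2 fold change was -0.84 (SE 0.49) with an adjusted p of 0.79 by edgeR, and -0.92 (SE 0.61) without shscramble replicate 1. It was -0.49 (SE 0.48) without shMETTL1 replicate 2 and -0.36 (SE 0.53) without the most read position of the gene. OAZ1, the antizyme, had 1942, 1871 and 1952 reads in shMETTL1 and 1568, 2686 and 1385 in shscramble. Its CPM of 758, 760 and 834 in shMETTL1 lay below the 862, 1007 and 983 in shscramble. The log2 fold change was small, -0.28 (SE 0.25), with an adjusted p of 0.91 by edgeR, and -0.35 (SE 0.32) without shscramble replicate 1.

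**Figure D1:**
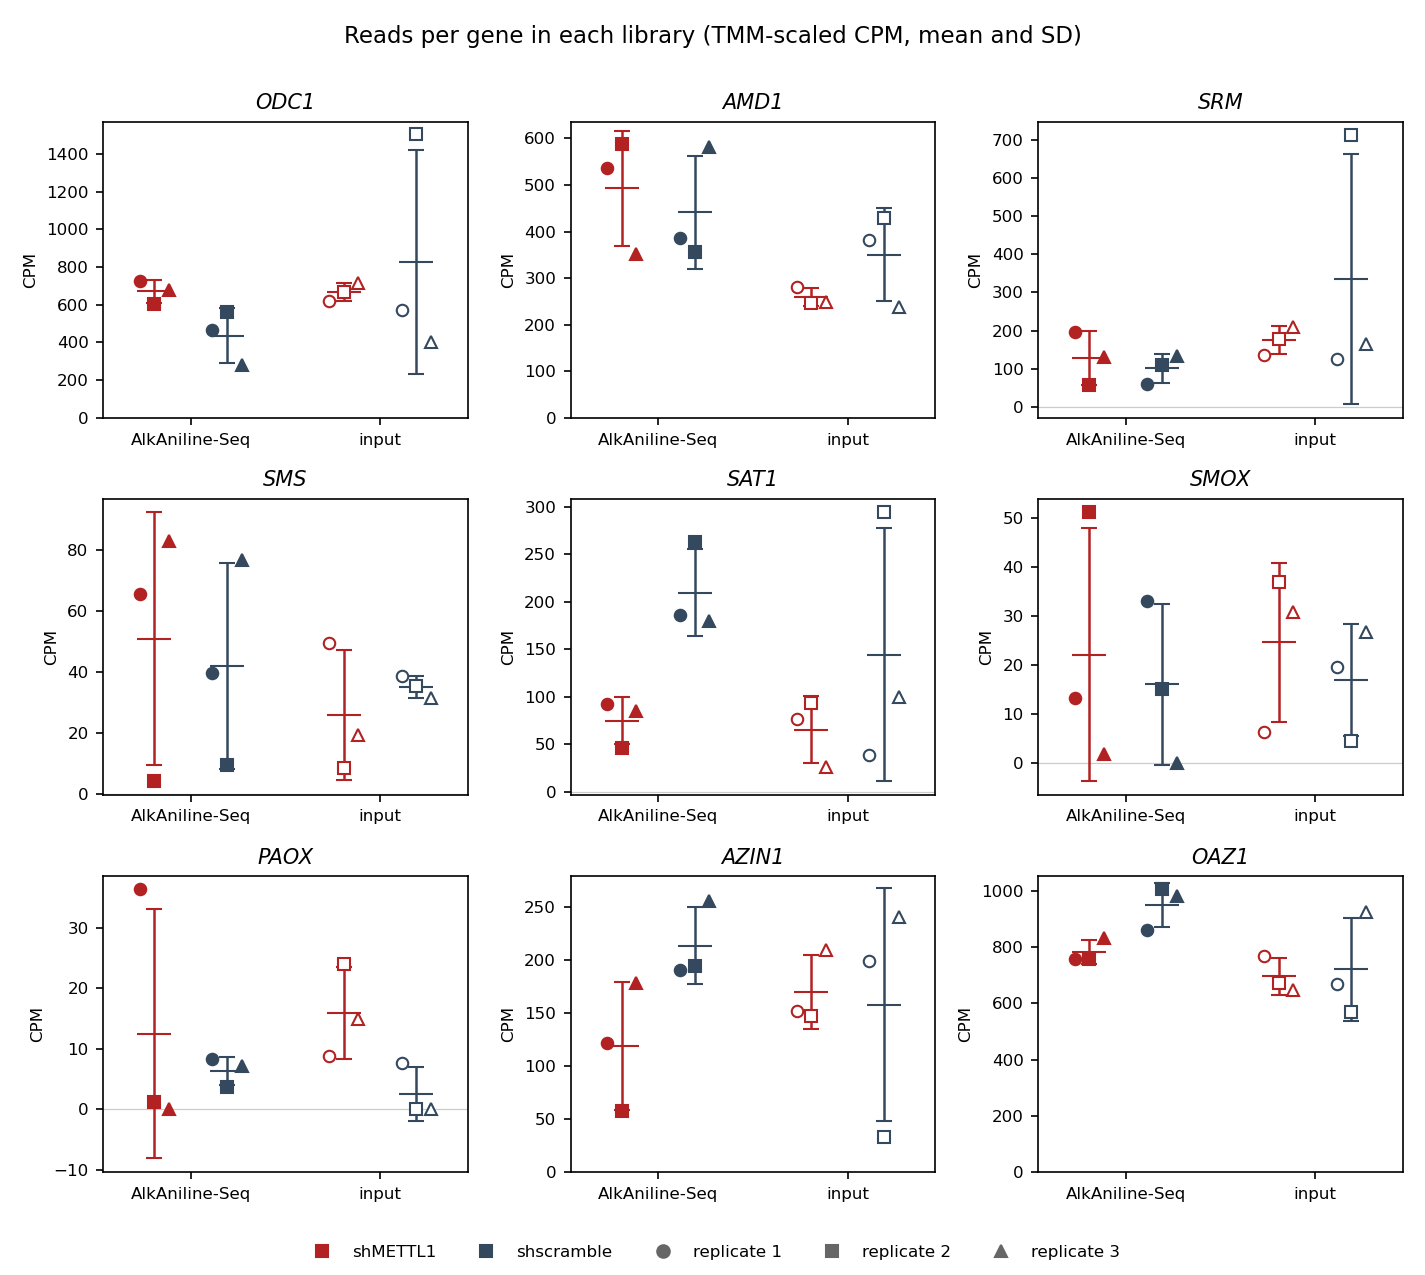
Reads of the 9 polyamine genes in each library, as CPM after TMM scaling within each assay (y axis, linear), for AlkAniline-Seq (filled symbols) and input (open symbols), with shMETTL1 left of shscramble and bars giving the mean and SD of 3 replicates. SAT1, AZIN1 and OAZ1 lie lower in all shMETTL1 AlkAniline-Seq libraries and ODC1 higher, while in the input shscramble replicate 2 stands apart for ODC1, SRM, SAT1 and AZIN1.

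The input libraries show how far the reads of each gene differed without the enrichment. No member passed the test there either. Of the 8 tested, 0 had an adjusted p under 0.05 in edgeR, against 0% of 11740 genes, 0 of the 8 were under 0.05 before adjustment, against 6.26%, and DESeq2 likewise called 0 of the 8, against 0.298%. The median log2 fold change of the 8 was -0.18, and that of all genes was -0.04, both with TMM scaling. With DESeq2's size factors the median of all genes was -0.21, and the members moved too. They were then -1.38 for SRM, -0.71 for AMD1, -0.70 for ODC1, -0.69 for SMS and -0.24 for OAZ1. AZIN1, SMOX and PAOX were above 0, at 0.04, 0.47 and 2.57.

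The level of SAT1 in the input was 76.9, 92.9 and 26.1 CPM in shMETTL1 and 38.3, 294 and 99.97 CPM in shscramble. The groups overlapped, and the log2 fold change was -1.14 (SE 0.72). Without shscramble replicate 2 it was -0.09 (SE 0.57), so the difference rested on that replicate, whose library held 598 SAT1 reads, against 121 and 321 in shscramble replicates 1 and 3. Of these 598 reads, 292 were at a single position. The input of shMETTL1 held 296, 317 and 79 SAT1 reads.

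For ODC1 the input held 2392, 2281 and 2157 reads in shMETTL1 and 1798, 3063 and 1288 in shscramble. In shscramble replicate 2, 1377 of the 3063 reads, or 45.0%, were at a single position. The log2 fold change was -0.31 (SE 0.41) with all libraries and 0.46 (SE 0.25) without shscramble replicate 2, so its sign changed with that replicate. For SRM the input held 528, 609 and 635 reads in shMETTL1 and 393, 1447 and 534 in shscramble, with 844 of the 1447 reads of shscramble replicate 2 at a single position. The log2 fold change was -0.93 (SE 0.55), and 0.27 (SE 0.33) without that replicate.

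AMD1 had 1083, 841 and 756 input reads in shMETTL1 and 1206, 875 and 764 in shscramble. Its log2 fold change was -0.43 (SE 0.38), with 598 of the 875 reads of shscramble replicate 2 at a single position, and -0.26 (SE 0.29) without that replicate. SMS had 191, 29 and 58 input reads in shMETTL1 and 122, 72 and 101 in shscramble, with 71 of the 72 reads of shscramble replicate 2 at a single position. Its groups overlapped, and the log2 fold change was -0.45 (SE 0.998).

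AZIN1 had 585, 503 and 634 input reads in shMETTL1 and 630, 68 and 773 in shscramble. Shscramble replicate 2 was again the one apart, and the log2 fold change of 0.10 (SE 0.58) became -0.38 (SE 0.31) without it. OAZ1 had 2966, 2290 and 1957 input reads in shMETTL1 and 2108, 1161 and 2970 in shscramble, with a log2 fold change of -0.05 (SE 0.31), or -0.20 (SE 0.24) without shscramble replicate 2. Of the 1161 OAZ1 reads of that replicate, 778 were at a single position. The groups overlapped. SMOX had 24, 126 and 93 input reads in shMETTL1 and 62, 9 and 86 in shscramble, with a log2 fold change of 0.53 (SE 1.15), or 0.09 (SE 0.86) without shscramble replicate 2. PAOX had 34, 82 and 45 input reads in shMETTL1 and 24, 0 and 0 in shscramble. The PAOX groups did not overlap in CPM, as was so for 7.64% of genes in that direction, and the log2 fold change of 2.61 (SE 1.59) had an adjusted p of 0.83 by edgeR. The adjusted p-values of the 8 tested members in the input ran from 0.82 to 0.99 by edgeR.

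Whether the enrichment of a gene over its input differed between groups was tested as the interaction of assay and group over the 12 libraries. None of the 8 members passed by edgeR, against 0.00777% of 12877 genes, 0 of the 8 were under 0.05 before adjustment, against 8.35%, and DESeq2 likewise called 0 of the 8, against 0.738%. The synthesis genes had the log2 values farthest above 0, at 1.44 (SE 0.85) for SRM, 1.09 (SE 0.57) for ODC1, 0.88 (SE 1.52) for SMS and 0.73 (SE 0.52) for AMD1, beside a median of 0.24 over all genes. Without the input library of shscramble replicate 2 alone, a choice made after seeing the data, they were 0.18 (SE 0.71) for SRM, 0.27 (SE 0.41) for ODC1, 0.85 (SE 1.51) for SMS and 0.53 (SE 0.46) for AMD1, beside a median over all genes of 0.13. That library therefore carried most of the value for SRM and ODC1. The value for AZIN1 was -0.84 (SE 0.82), or -0.36 (SE 0.61) without it, and that for OAZ1 was -0.10 (SE 0.39), or 0.03 (SE 0.33) without it. SAT1 had -0.17 (SE 0.94), or -1.30 (SE 0.83) without it. Leaving out both libraries of shscramble replicate 1 gave 1.44 (SE 0.88) for SRM, 1.22 (SE 0.64) for ODC1, -1.19 (SE 0.99) for AZIN1 and 0.07 (SE 0.997) for SAT1. SMOX and PAOX had 0.02 (SE 1.98) and -1.54 (SE 2.44). The adjusted p-values of the 8 tested members by edgeR ran from 0.63 to 0.999.

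**Figure D2:**
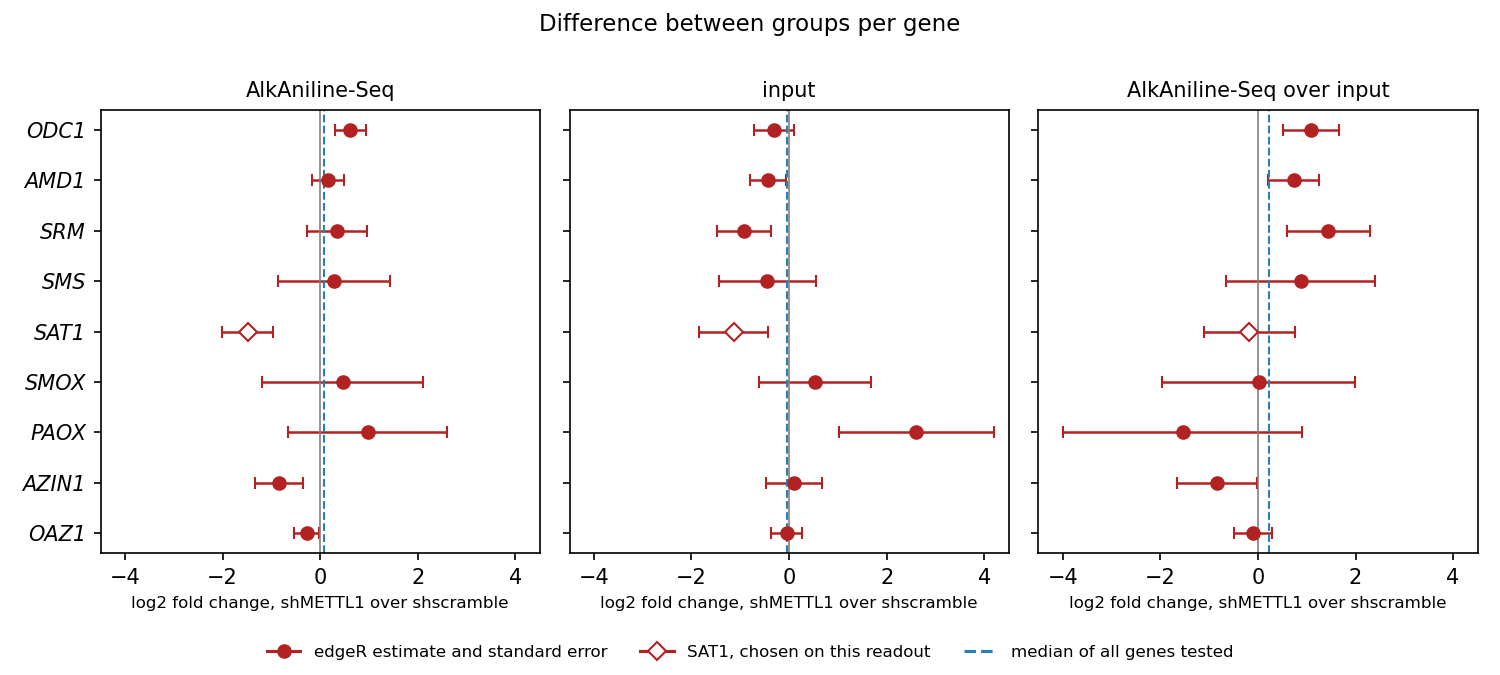
Log2 fold change of shMETTL1 over shscramble for each polyamine gene (x axis) in AlkAniline-Seq, in input, and in AlkAniline-Seq over input, with bars of 1 standard error from edgeR and a dashed line at the median of all genes tested. No tested member passed an adjusted p of 0.05, and SAT1 (open diamond), chosen on this readout, was not tested.

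Within each group, AlkAniline-Seq was also set against input. Within shMETTL1, 0 of the 8 members passed by edgeR, against 0.21% of 12877 genes, and 1 had an unadjusted p under 0.05, against 8.27% of genes. That member was AMD1, with a log2 ratio of 0.84 (SE 0.37) and an adjusted p of 0.55 by edgeR. Its reads over input were above 0 on the log2 scale in 3 of 3 shMETTL1 pairs, at 0.88, 1.14 and 0.38, and in 1 of 3 shscramble pairs, at -0.16, -0.58 and 1.10. Within shscramble, 0 of the 8 passed, against 0.637% of genes, and 2 had an unadjusted p under 0.05, against 13.2%. These were SRM, with a log2 ratio of -1.99 (SE 0.62, adjusted p = 0.16 by edgeR), and ODC1, with -1.18 (SE 0.41, adjusted p = 0.21 by edgeR). All 3 shscramble pairs lay below 0 for both genes, at -1.22, -2.98 and -0.51 for SRM and -0.47, -1.73 and -0.71 for ODC1, and replicate 2 was the farthest. Without the filter on low counts, SRM was called, with a log2 ratio of -1.91 (SE 0.55, adjusted p = 0.039 by edgeR), as 1 of 266 genes called so, or 1.43%. Without the input library of replicate 2 the ratios were -0.73 (SE 0.52, adjusted p = 0.68 by edgeR) for SRM and -0.36 (SE 0.31, adjusted p = 0.75 by edgeR) for ODC1. Within shMETTL1 the ratios were -0.55 (SE 0.60) for SRM and -0.09 (SE 0.40) for ODC1.

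The count at the positions of a gene as a percent of the coverage there does not depend on library size. For OAZ1 it was 5.11%, 5.01% and 4.80% in shMETTL1 and 6.04%, 6.18% and 6.24% in shscramble, a difference of -1.18 percentage points between the means of 4.97% ± 0.16 and 6.15% ± 0.10 (SD, n = 3 each). The groups did not overlap, but an exact two-sided permutation test gave p = 0.1, the smallest that 3 against 3 allows. For AZIN1 it was 4.36%, 4.91% and 6.64% in shMETTL1 and 8.26%, 10.4% and 11.98% in shscramble, also without overlap (exact two-sided permutation test, p = 0.1). Without shscramble replicate 1, an alternative added after seeing the data, the difference between the means was -1.24 percentage points for OAZ1 and -5.89 for AZIN1. OAZ1 and AZIN1 thus had the lower share in every shMETTL1 library. They were 2 of the 7 tested members with coverage in every library. In 7.15% of 10744 genes all shMETTL1 values lay below all shscramble values, and in 5.14% above.

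In the input the order was not the same. OAZ1 had 5.27%, 4.69% and 4.51% in shMETTL1 and 3.75%, 2.71% and 5.06% in shscramble (exact two-sided permutation test, p = 0.3), and AZIN1 had 12.4%, 15.9% and 15.6% in shMETTL1 and 14.9%, 4.45% and 13.3% in shscramble (exact two-sided permutation test, p = 0.4). The groups overlapped for both. The other tested members with coverage in all libraries overlapped between groups in AlkAniline-Seq, with 3.96% ± 0.51 in shMETTL1 and 4.69% ± 1.53 in shscramble for ODC1 (SD, n = 3 each). AMD1 had 4.597% ± 0.99 in shMETTL1 and 4.23% ± 0.52 in shscramble, and SRM had 11.3% ± 6.73 in shMETTL1 and 6.65% ± 1.09 in shscramble. For each of these, the SD within at least 1 group was larger than the difference between the means. The same held for SMS, which had 9.06% ± 6.08 in shMETTL1 and 10.8% ± 9.01 in shscramble, and for SMOX, which had 19.8% ± 15.4 in shMETTL1 and 12.4% ± 13.5 in shscramble. SAT1 had 4.64%, 2.99% and 5.30% in shMETTL1 and 7.23%, 8.10% and 4.29% in shscramble, with overlap. PAOX had no coverage in shMETTL1 replicate 3. With 7 such tests in AlkAniline-Seq, no p of 0.1 could pass an adjustment.

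**Figure D3:**
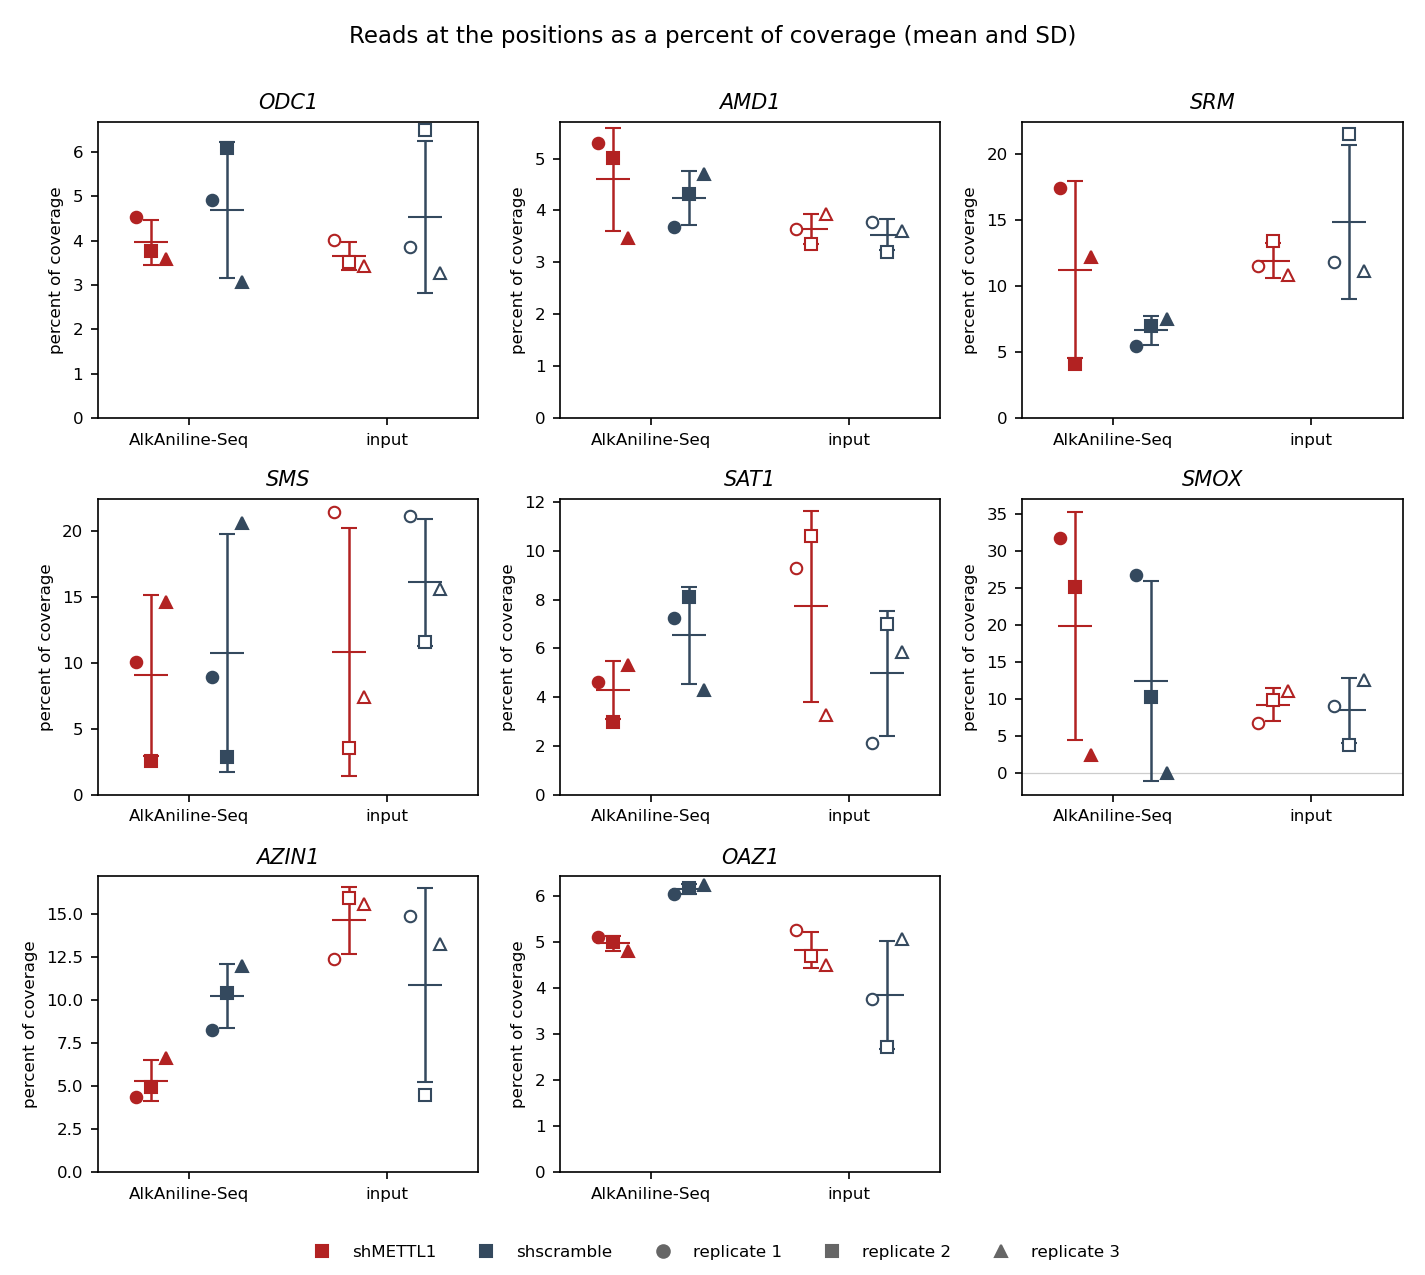
Reads at the positions of each gene as a percent of their coverage (y axis, linear from 0) in AlkAniline-Seq (filled) and input (open), shMETTL1 left of shscramble, with the mean and SD of 3 replicates; PAOX is left out because it lacked coverage in some libraries. OAZ1 and AZIN1 lie lower in every shMETTL1 AlkAniline-Seq library than in any shscramble library, and overlap in the input.

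Single positions recurred little between libraries. Of the 1024 positions of the polyamine genes, 600 had an AlkAniline-Seq read, of which 290 (48.3%) were read in 1 library and 22 (3.67%) in all 6. For all other genes these shares were 62.9% and 1.89%. OAZ1 held 11 of the 22 positions read in all 6, AMD1 held 4, ODC1 held 3 and SAT1 held 2, while SRM and AZIN1 held 1 each and SMS, SMOX and PAOX none. The number of reads at a position varied by library even at these sites. Positions are numbered here in the order in which the tables list them within a gene, which need not be the order along the transcript, and no coordinate is given.

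The most read position of OAZ1, number 140, had 432, 121 and 205 reads in shMETTL1 and 359, 141 and 219 in shscramble, and 870, 501 and 581 input reads in shMETTL1 and 516, 778 and 656 in shscramble. It was read in every library. OAZ1 position 95 had 304, 181 and 125 reads in shMETTL1 and 170, 204 and 217 in shscramble. The groups overlapped at both. ODC1 position 14 had 139, 88 and 204 reads in shMETTL1 and 104, 4 and 8 in shscramble, and it was the position that held 1377 input reads in shscramble replicate 2. The input counts at ODC1 position 14 in shMETTL1 were 234, 299 and 372.

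In AMD1, position 230 had 67, 3 and 94 reads in shMETTL1 and 22, 91 and 1 in shscramble. SRM position 33 had 0, 16 and 150 reads in shMETTL1 and 4, 1 and 1 in shscramble, and SRM position 34, read in all 6 libraries, had 3, 2 and 9 reads in shMETTL1 and 20, 3 and 50 in shscramble. At all 3 of these positions, replicates of a group differed widely. AZIN1 position 74 had 47, 0 and 1 reads in shMETTL1 and 44, 10 and 188 in shscramble. SMS position 61 had 42, 1 and 71 reads in shMETTL1 and 6, 0 and 0 in shscramble. The most read positions of SMOX and PAOX had 123 and 62 reads, each in 1 shMETTL1 library, and none in the other 5.

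The most read position of SAT1, number 31, had 101, 9 and 2 reads in shMETTL1 and 96, 133 and 49 in shscramble, and 16, 0 and 0 input reads in shMETTL1 and 3, 14 and 2 in shscramble. SAT1 position 19 had 62, 1 and 38 reads in shMETTL1 and 23, 92 and 6 in shscramble. At both, shMETTL1 replicate 1 had a count within the range of the shscramble libraries. The position by which SAT1 was chosen, number 62, had 0, 1 and 0 reads in shMETTL1 and 1, 19 and 1 in shscramble, at a coverage of 447, 232 and 367 reads in shMETTL1 and 416, 877 and 442 in shscramble. Its input had 6, 25 and 1 reads in shMETTL1 and none in shscramble. Where the input has no read, the deposited fold is the fraction plus 1, so the shscramble folds were 1.002, 1.02 and 1.002, whereas the shMETTL1 folds were 0, 0.024 and 0. A single AlkAniline-Seq read thus gave a fold of 1.002 in shscramble replicates 1 and 3.

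The study's thresholds, a change of the mean fold over input by more than 1.5 times and an unadjusted p under 0.05 in the methods' test, were applied to all positions read. Where the mean fold of 1 group was 0, no ratio exists, and the other mean plus 1 was taken as the change. SRM position 1 and AMD1 position 181, described below, passed in this way. In the polyamine genes 6 positions passed, 1 higher and 5 lower in shMETTL1, or 1% of the 600 read, against 1.25% of the 404685 positions read over all genes. Most of those over all genes were lower too, 4229 against 822 higher. The members' share was thus near that of all genes. In 4 of the 6 the weakest library of the higher group had 1 read, the highest such count was 5, and 0 of the 6 had at least 10 reads in every library of the higher group. Leaving out 1 replicate at a time gave 11 to 46 positions, with 12 (2% of those read) without shscramble replicate 1, 35 (5.83%) without shscramble replicate 2 and 46 (7.67%) without shscramble replicate 3. The shares of all genes were 1.59%, 5.64% and 7.94% in the same order. The members' shares include SAT1 here too and are a description only.

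Beside SAT1 position 62, these were ODC1 position 154, with 1, 0 and 12 reads in shMETTL1 and 4, 34 and 1 in shscramble, and SRM position 1, with 59, 1 and 1 reads in shMETTL1 and none in shscramble. The input of ODC1 position 154 had 2, 0 and 45 reads in shMETTL1 and 0, 1 and 0 in shscramble, and that of SRM position 1 had none in any library. Here the reads of 1 library made up most of each group's sum. AMD1 position 181 had no AlkAniline-Seq read in shMETTL1 and 15, 5 and 25 in shscramble, with 1 input read over the 6 libraries. AMD1 position 148 had 19, 1 and 0 reads in shMETTL1 and 3, 1 and 11 in shscramble, so the AlkAniline-Seq counts overlapped while the input counts of 32, 108 and 53 in shMETTL1 lay above the 4, 0 and 4 in shscramble. OAZ1 position 163 had 1, 0 and 6 reads in shMETTL1 and 35, 7 and 2 in shscramble.

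**Figure D4:**
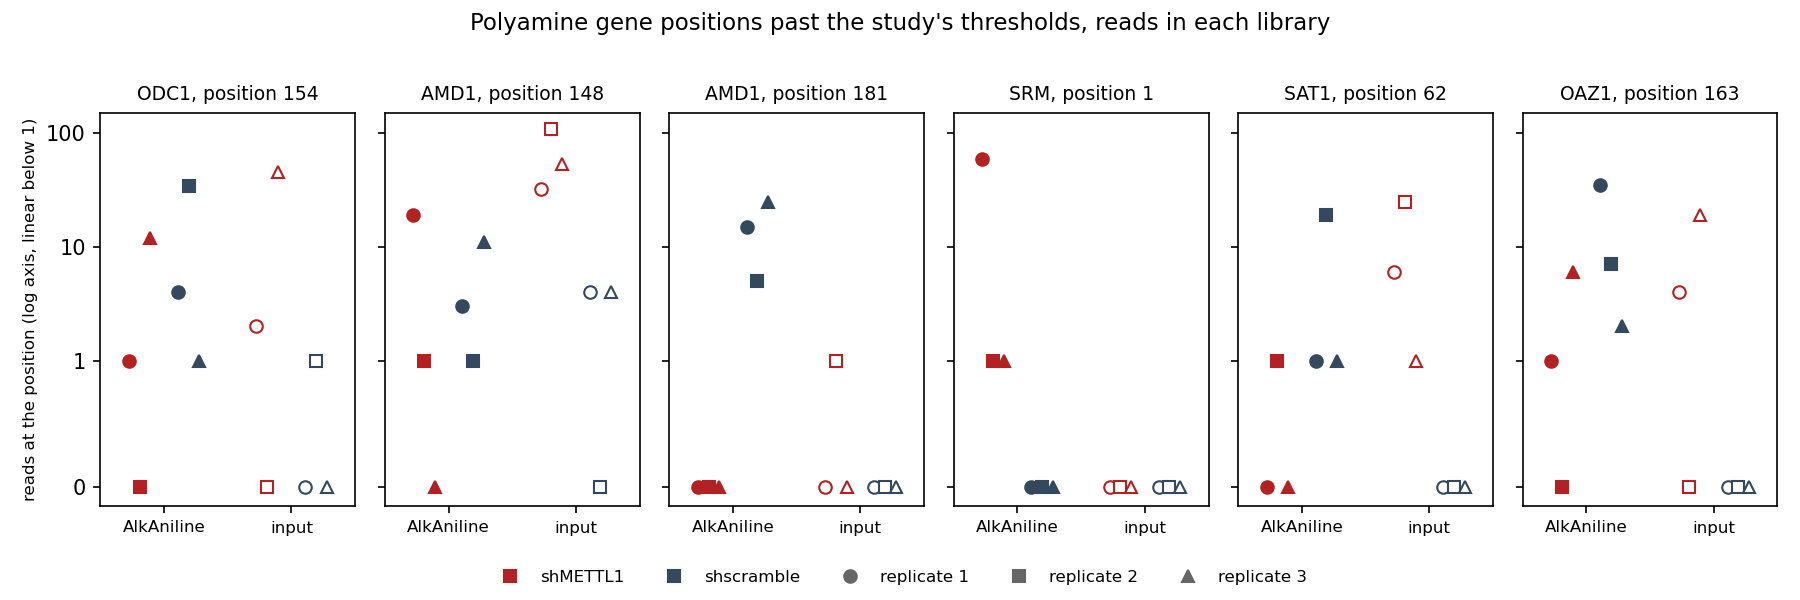
Reads at the 6 polyamine gene positions past the study's thresholds, in AlkAniline-Seq (filled) and input (open) libraries, shMETTL1 left of shscramble, on a log axis that is linear below 1. Each symbol is 1 library, and AMD1 position 181 is the only one of the 6 with at least 5 reads in every library of the higher group.

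Counts at single positions were tested with edgeR after a filter on low counts. Of the 40 positions that passed in the 8 tested members, 0 had an adjusted p under 0.05, against 0% of 13973 positions. An unadjusted p under 0.05 was found at 5 of the 40, and at 8.19% of all positions. Those 5 included the AMD1 positions called by DESeq2, described below, which passed the filter through their shscramble counts alone. Nothing is therefore read from the count of 5. Without shscramble replicate 3, edgeR called 7 of 84, all lower in shMETTL1, against 18.3% of all 29677 positions then tested being called lower. The log2 fold changes of these 7 ran from -7.83 to -4.98. High counts in the shscramble libraries that were left sufficed to pass the filter, so nothing is read from a test of them. DESeq2 called 2 of the 40, against 5.1% of all positions, both in AMD1 and both lower in shMETTL1. Some of the 40, in ODC1 and AZIN1, had no adjusted p in DESeq2. The DESeq2 shares count such positions, for members as for all positions, and are not compared further.

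The first of the positions called by DESeq2, AMD1 position 41, had 1, 1 and 1 reads in shMETTL1 and 15, 112 and 69 in shscramble. The second, AMD1 position 155, named after its values were seen, had 0, 1 and 1 reads in shMETTL1 and 16, 12 and 74 in shscramble. Both passed the filter through their shscramble counts alone, so nothing is read from a test of them. The coverage at AMD1 position 41 was 181, 3 and 2 reads in shMETTL1 and 93, 152 and 132 in shscramble, so that few reads of any kind were found there in shMETTL1 replicates 2 and 3. At AMD1 position 155 the coverage was 307, 158 and 138 in shMETTL1 and 255, 101 and 451 in shscramble.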

How the data were processed

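LNCaP-AI libraries of shMETTL1 and shscramble (3 AlkAniline-Seq and 3 input libraries each) were used. For every position the authors deposited 2 counts (reads at it and reads over it), the fraction of the first over the second, and the ratio of the AlkAniline-Seq fraction to the input fraction. Each relation was checked on the files. Bowtie2 2.2.4, cutadapt 1.9.1, bedtools 2.24 and the hg19 build are listed, without roles, in the submitters' processing notes. Which annotation and read filters they used is not given in the sources used here. Rows were taken as the same position across files by row order, since the gene ID agreed in every row. The members' symbols came with their Ensembl IDs. For the 3 members in the study's table of positions, the listed fold was found at 1 position each, of the same ID. Other genes of the pathway (23 symbols) could not be paired with an Ensembl ID.

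Counts were summed per gene ID and tested by the quasi-likelihood F test of edgeR 4.0.16 under R 4.3.3 (TMM, filterByExpr at min.count 10 and min.total.count 15, Benjamini-Hochberg adjustment over all genes or positions tested, threshold 0.05). The standard error is the log2 fold change over the square root of F. The scaling of the interaction test used all 12 libraries, and log2 ratios of single pairs used CPM with a pseudocount of 1. DESeq2 1.42.0, its size factors, no filter, a replicate block, omission of the most read position or of each replicate, and the methods' t-test on log2(CPM + 1) were alternatives. The fit was also run on simulated data, and the smallest change it could call is not given here. Python 3.11.15 with scipy 1.17.1 gave exact permutation tests. Named positions were those with the highest summed count of a gene, read in all 6 libraries or past the study's thresholds, up to 3 of each kind, and were described in part. The members, lists and tests were chosen with earlier results of these data known. Beyond a general statement of biological replicates in the paper, nothing says what the replicates are, so p-values measure only the spread between these samples. Same-numbered samples did not deviate together, with correlations of their deviations from -0.02 to 0.05.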

Additional observations from a re-analysis of the deposited data

How the results depend on the processing

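No member was called between groups per gene, in AlkAniline-Seq, input or their ratio, under any alternative run, including each replicate left out. Within shscramble, 1 member, SRM, was called over input without the filter, as 1 of 266 genes among 18569. For positions, DESeq2 called 2 of 40 (713 of 13973 over all genes), and leaving out each replicate in turn gave 0 to 7. The highest, 7 of 84, came without shscramble replicate 3, when 5644 of 29677 were called over all genes. High shscramble counts sufficed for these positions to pass the filter, so nothing is read from their calls. Positions past the study's thresholds numbered 11 to 46 with each replicate left out, with 35 and 46 when shscramble replicate 2 or 3 was left out (5.83% and 7.67%, against 5.64% and 7.94% over all genes), and 0 with at least 10 reads in every library of the higher group. These counts include SAT1, chosen by such a position, and are a description only.

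Of 386 log2 values under alternatives, 35 changed sign, 1 became called, 348 counted as the same and 2 as moved. Moved, a shift by over 1 standard error, was a label used only for SAT1, which had no test. For the tested members, the same meant only that sign and call held, and some of these values shifted as far. PAOX in the input went from 2.61 (SE 1.59) to 8.62 without shscramble replicate 1. SRM in the input went from -0.93 (SE 0.55) to -2.14 without its most read position. With the replicate block, which called 0 members, the AlkAniline-Seq log2 fold changes of SMS and PAOX were -0.087 and -1.38, and SMOX over input was -0.067. Without the most read position, the AlkAniline-Seq values were -0.10 for SMS, -1.46 for SMOX and -0.42 for PAOX, the input value of AZIN1 was -0.035, SAT1 over input was 0.44, and ODC1 over input within shMETTL1 was 0.022. The methods' t-test gave -0.071 for SMS and -0.70 for PAOX. DESeq2 and its size factors each gave 0.01 (0.0093 and 0.0087) for SAT1 over input and -0.0036 and -0.0037 for SMOX over input, which was -0.088 without the filter. SAT1 over input was -1.296 and OAZ1 over input 0.026 without the input library of shscramble replicate 2, an alternative chosen after seeing the data.

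With each replicate left out, AlkAniline-Seq values ran from -0.092 to 0.71 for SRM, -0.24 to 1.11 for SMS, -1.07 to 1.52 for SMOX and -3.23 to 1.58 for PAOX. Input values ran from -0.66 to 0.46 for ODC1, -1.36 to 0.27 for SRM, -0.38 to 0.55 for AZIN1 and -0.20 to 0.16 for OAZ1. Values over input ran from -1.11 to 0.44 for SAT1, -1.10 to 0.88 for SMOX and -0.26 to 0.061 for OAZ1. AMD1 over input within shscramble ran from -0.38 to 0.45. The cause was not tested.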
